A study of Homo sapiens with 24 samples.

Results

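The fragments described here come from a massively parallel reporter assay of variants in human 3′ untranslated regions. They were chosen for reporter RNA that was raised over the typical fragment, on the mean over replicates, in both cell lines. By the gene name in their labels, looked up in RefSeq, 38 of them belong to protein-coding genes and 1 to a long non-coding RNA gene. They are the reference-base oligos with a mean of at least 100 plasmid DNA counts per library in each line and an activity of at least 0.5 in each line. Activity is the log2 of the mean share of RNA counts over the mean share of DNA counts, minus the median over all fragments that passed the DNA minimum. Of 11265 reference fragments in the series, 10167 passed the DNA minimum and 39 met the rule, 0.384% of the 10167. The 39 fragments come from 37 genes, since ARHGEF10L and PPP1R16B each gave a pair of them. The fragments were thus chosen by the counts of their reference oligos in all 24 libraries, so their activities are given as a description, without a test.

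The pool of reporter plasmids was delivered by lipid transfection (Lipofectamine) to SH-SY5Y, a human neuroblastoma line, and to microglia immortalised with SV40. Each line gave 6 biological replicates, with a DNA and a polyadenylated RNA library from each, so 4 groups of 6 libraries were compared. No other treatment is given in the labels, and each line is a single cell line, so differences between them are those of these lines and not of neurons and microglia at large. The reporter counts carry no expression of the cells' own genes, so the identity of the lines was not checked here.

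A 3′ untranslated region lies after the stop codon of a messenger RNA and holds sites for microRNAs and RNA-binding proteins. Such sites set how long the RNA lasts, where it is cleaved and polyadenylated, and how well it is translated. In a reporter of this kind a raised ratio of RNA to DNA means that more RNA was recovered per plasmid copy, and slower decay, more transcription or better RNA processing would all count alike. Each fragment was also present with at least 1 alternative base at its SNP. These alternative oligos have counts of their own, which the rule did not use, and they carry the tests below. Fragment sequences and SNP positions were not used here, so whether fragments of a gene overlap was not determined.

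Depth was highest for the SH-SY5Y plasmid libraries, at 16556722 to 19101103 counts, with 11764547 to 18100832 for the RNA of that line. The microglia libraries held 12154918 to 17570853 counts for DNA, and their RNA was the shallowest at 7018516 to 10437069. Libraries of the same replicate number in the 2 lines deviated from their group means together across oligos (r from 0.0661 to 0.105 for RNA and from 0.0341 to 0.0734 for DNA), while differently numbered libraries did not (-0.0299 to 0.00812). The size of this corresponds to 1.9% to 2.46% of each RNA library's counts appearing in the same-numbered library of the other line, and to 1.54% to 3.06% for DNA. What made these libraries deviate together was not tested, and shared reads below is only a name for this estimate. Counts estimated as shared in this way were subtracted as an alternative, and results that it changed are given with and without it. With the subtraction 37 of the 39 fragments still met the rule. PPP1R16B rs4812336 fell just short in microglia (0.49) and PROX2 rs10220695 in SH-SY5Y (0.499).

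The activities of the 39 fragments ran from 0.50 to 3.33 in SH-SY5Y (median 0.64) and from 0.50 to 1.01 in microglia (median 0.60). In SH-SY5Y 7 of them reached 1, and in microglia 1 did. Most lay close to the threshold, with 26 under 0.6 in the line where they were lower. The values just inside were those of PROX2 rs10220695 (0.50 in SH-SY5Y and 0.60 in microglia), WDR27 rs16888016 (0.60 and 0.50) and C16orf72 rs56154228 (0.52 and 0.70). Just outside were VPS13C rs3210522 (0.49 and 0.61), HLA-DPB1 rs9277559 (0.62 and 0.495) and TLR6 rs7664687 (0.52 and 0.496). In all 6 RNA libraries, 18 of the 39 were above the typical fragment in SH-SY5Y and 36 in microglia, where the shares over all fragments were 4.76% and 13.7%; the rule used these counts too. The median standard deviation over the 6 RNA replicates was 0.45 in SH-SY5Y and 0.24 in microglia, close to that of all fragments (0.47 and 0.23). Every RNA library was above every DNA library for 14 of the 39 in SH-SY5Y and 21 in microglia, where the shares over all fragments were 2.17% and 3.74%; the rule used these counts, so nothing is read from this. With any 1 replicate left out, between 43 and 53 fragments met the rule, and 11 of the 39 did so whichever replicate it was. These were the fragments of FBXL18, MOG, TREML2, TXNRD2, TSTA3, MLEC, HIP1R, BRD1, MUC21, MAN2A2 and FAT3.

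The fragment with the highest value in its lower line was FBXL18 rs182946436 with the reference base G. FBXL18 encodes an F-box protein, the part of an SCF ubiquitin ligase that binds the substrate, and lies on chromosome 7 from 5454425 to 5513809 (gene coordinates, GRCh38.p14). In SH-SY5Y its activity over the 6 RNA replicates ran from 0.79 through a median of 1.67 to 2.32. In microglia it ran from 0.54 through 0.95 to 1.48. The RNA was above the DNA without overlap in both lines, at 13.5 to 38.9 against 6.39 to 10.4 CPM (the count scaled to a fixed library total) in SH-SY5Y and 13.1 to 25.0 against 7.61 to 10.7 in microglia. The plasmid was rare, with a mean of 139.8 DNA counts in SH-SY5Y and 136.2 in microglia.

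TREML2 rs112522404 (reference A) was the most active fragment in SH-SY5Y. TREML2 encodes an immune cell receptor of the TREM family and lies on chromosome 6 from 41189749 to 41201149. Its RNA was at 330 to 440 CPM in SH-SY5Y against 35.4 to 42.5 in the DNA, an activity of 3.09 to 3.50 over the replicates with a median of 3.31. In microglia the RNA was at 50.9 to 81.5 CPM against 30.6 to 45.3 in the DNA, an activity of 0.40 to 1.08 with a median of 0.84. All SH-SY5Y replicates were above all microglia replicates. Its microglia activity of 0.80 became 0.51 when shared reads were subtracted.

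MOG rs2535243 (reference A) belongs to the gene of myelin oligodendrocyte glycoprotein, a protein of the outer myelin surface (chromosome 6, 29657092 to 29672365). Activity ran from 0.83 to 1.85 in SH-SY5Y (median 1.39) and from 0.12 to 1.23 in microglia (median 0.90). The RNA did not overlap the DNA in SH-SY5Y but did in microglia, where the DNA itself spread from 9.84 to 21.7 CPM. DSG3 rs181938639 (reference G) belongs to the gene of desmoglein 3, a desmosomal cadherin of stratified epithelia (chromosome 18, 31447741 to 31478702). It ran from 0.37 to 2.32 in SH-SY5Y (median 1.33) and from 0.22 to 1.39 in microglia (median 0.79). Its RNA also overlapped the DNA in microglia but not in SH-SY5Y.

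Among fragments with abundant plasmids the replicates lay closer together. TXNRD2 rs67937222 (reference G), in the gene of mitochondrial thioredoxin reductase (chromosome 22, 19875522 to 19941818), had 1716 mean DNA counts in SH-SY5Y and ran from 0.52 to 1.06 there (median 0.87) and from 0.54 to 0.87 in microglia (median 0.68). TSTA3 rs75900260 (reference A) is in the gene now named GFUS, which makes GDP-fucose for protein and lipid fucosylation (chromosome 8, 143612618 to 143618048). It ran from 0.36 to 1.07 in SH-SY5Y (median 0.76) and from 0.49 to 0.84 in microglia (median 0.66). For both fragments every RNA library was above every DNA library in each line.

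HIP1R rs7958155 (reference G), in the gene of a protein that links clathrin coats to actin (chromosome 12, 122834748 to 122862961), ran from 0.18 to 0.87 in SH-SY5Y (median 0.64) and from 0.52 to 0.78 in microglia (median 0.67). MUC21 rs886403 (reference T), in a transmembrane mucin gene (chromosome 6, 30983718 to 30989903), ran from 0.16 to 0.98 (median 0.65) and from 0.44 to 0.72 (median 0.59). The MUC21 RNA and DNA did not overlap in either line, whereas those of HIP1R overlapped in SH-SY5Y. WDR27 rs16888016 (reference C), in a WD-repeat gene (chromosome 6, 169426420 to 169702029), had the most DNA counts of all 39 (2286 in SH-SY5Y) and ran from 0.37 to 0.86 in SH-SY5Y (median 0.58) and from 0.42 to 0.64 in microglia (median 0.46). Its RNA was above its DNA without overlap in both lines.

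BRD1 rs138826 (reference T), in the gene of a bromodomain subunit of a histone acetyltransferase complex (chromosome 22, 49773278 to 49827873), ran from -0.21 to 1.01 in SH-SY5Y (median 0.73) and from 0.47 to 0.82 in microglia (median 0.55). MLEC rs56217506 (reference T), in the gene of malectin, an endoplasmic reticulum lectin (chromosome 12, 120687149 to 120701859), ran from -0.51 to 1.20 (median 0.80) and from 0.21 to 1.07 (median 0.69). In both of these 1 SH-SY5Y replicate was below the typical fragment while all microglia replicates were above it. CCDC7 rs10160086 (reference T; chromosome 10, 32443324 to 32882864) was above in all replicates, at 0.23 to 1.01 (median 0.58) and 0.27 to 1.06 (median 0.55). SHISA9 rs114209764 (reference C), in the gene of an AMPA receptor auxiliary protein (chromosome 16, 12901598 to 13563017), had 1 replicate below in each line, with ranges of -0.29 to 1.27 (median 0.47) and -0.37 to 1.25 (median 0.85).

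The replicates of a few fragments were spread widely in SH-SY5Y. C16orf72 rs56154228 (reference C), in the gene now named HAPSTR1 (chromosome 16, 9091644 to 9121635), ran from -4.34 through a median of 0.26 to 2.14 there, and from 0.21 through 0.60 to 1.30 in microglia. DIAPH3 rs339533 (reference C), in the gene of a formin that nucleates actin filaments (chromosome 13, 59665583 to 60163928), ran from -1.17 through 0.19 to 2.02 in SH-SY5Y and from 0.28 through 0.67 to 1.69 in microglia. ANKRD10 rs1547178 (reference G; chromosome 13, 110878540 to 110915069) ran from -0.50 through 0.89 to 1.98 and from 0.36 through 0.73 to 1.01. In SH-SY5Y 4 of 6 replicates of C16orf72 and ANKRD10 and 3 of 6 of DIAPH3 were above the typical fragment. These 3 fragments had 121.3 to 138.7 mean DNA counts in SH-SY5Y, near the minimum of 100, and their RNA overlapped their DNA in both lines. The standard deviation over SH-SY5Y replicates exceeded 1 for C16orf72, DIAPH3 and ZNF276 rs1061647 and for no fragment in microglia.

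ARHGEF10L, a guanine nucleotide exchange factor gene (chromosome 1, 17513435 to 17697875), gave rs57349752 (reference G) and rs871089 (reference C). Their activities were 0.69 and 0.70 in SH-SY5Y and 0.69 and 0.52 in microglia. The replicates ran from -0.080 to 1.65 (median 0.42) and from -0.18 to 1.15 (median 0.67) in SH-SY5Y, and from 0.53 to 0.92 (median 0.66) and from 0.30 to 0.78 (median 0.48) in microglia. PPP1R16B, the gene of a regulatory subunit of protein phosphatase 1 (chromosome 20, 38805697 to 38923024), gave rs41276980 and rs4812336, both with reference G. The first ran from 0.026 to 1.64 in SH-SY5Y (median 0.41) and from 0.31 to 0.70 in microglia (median 0.54). The second ran from 0.57 to 1.90 (median 0.94) and from 0.16 to 0.67 (median 0.59). PROX2 rs10220695 (reference G), in a prospero homeobox gene (chromosome 14, 74853033 to 74876145), ran from -0.047 to 0.90 (median 0.42) and from 0.20 to 1.18 (median 0.55).

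The other 18 fragments had activities of 0.52 to 1.06 in SH-SY5Y and 0.53 to 0.80 in microglia. They include EPB41 rs12130351, in the gene of a membrane skeleton protein first known from red cells, MAN2A2 rs10048033, a Golgi mannosidase gene of N-glycan synthesis, FAT3 rs7927604, an atypical cadherin gene, and SPPL2A rs150435817, an intramembrane protease gene. Others are TRPM8 rs28902237, the cold- and menthol-gated channel gene, SGO1 rs9822963, whose protein guards centromeric cohesion, CNN2 rs1135643, an actin-binding calponin gene, and NARS2 rs7934948, the mitochondrial asparaginyl-tRNA synthetase gene. SLC46A1 rs73273104 is in the proton-coupled folate transporter gene, GPR65 rs114064763 in a proton-sensing receptor gene and SPATA7 rs73329641 in a gene of the photoreceptor cilium. Also among them are EPB41L4A rs7716479, ZDHHC24 rs11227522, a palmitoyltransferase family gene, LPGAT1 rs1044788, a phospholipid acyltransferase gene, the zinc finger genes ZNF507 rs3746016 and ZNF276 rs1061647, and LOC101929705 rs142009321, a long non-coding RNA gene now named SCIRT. EPB41L4A (1.06) and SGO1 (1.04) were the highest of these in SH-SY5Y and EPB41 (0.80) in microglia. The standard deviations over the RNA replicates were 0.82, 0.55 and 0.36 in these lines. EPB41L4A and SGO1 had few DNA counts in SH-SY5Y, with means of 177.3 and 200.

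The same fragments with another base at the SNP give a measure that the rule did not use. The 39 fragments had 47 alternative oligos, and all 47 were tested. In SH-SY5Y 11 of them were higher in RNA than in DNA and 0 were lower (edgeR quasi-likelihood test, Benjamini-Hochberg over all alternative oligos, threshold 0.05), where 4.3% of all 13173 alternative oligos were higher and 5.04% lower. In microglia 22 were higher and 0 lower, where 8.95% of 13170 were higher and 12.4% lower. In both lines 10 were higher, against 2.1% of 13151 oligos. None was lower at an unadjusted p under 0.05 in either line, and DESeq2 called 14 higher in SH-SY5Y, 28 in microglia and 0 lower in either. The fitted log2 value is RNA over DNA after TMM scaling, which sets the middle of all fragments 0.057 higher in SH-SY5Y and 0.024 higher in microglia than the activity scale does. Its median over the 47 was 0.30 in SH-SY5Y and 0.39 in microglia, against 0.044 and 0.015 over all oligos tested. On the scale of the rule, 12 of the 45 oligos with at least 100 DNA counts reached an activity of 0.5 in SH-SY5Y (3.47% of all such oligos), 13 in microglia (2.25%) and 4 in both (0.411%). Every RNA library was above every DNA library for 5 of the 47 in SH-SY5Y (1.91% of all oligos) and 11 in microglia (3.68%). With shared reads subtracted 21 oligos were higher in microglia and 9 in both lines. Leaving out replicate 2, 3 or 4 cut the number higher in both lines from 10 to 6.

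The split over all oligos in SH-SY5Y moved with the scaling. With total counts in place of TMM factors 345 oligos were higher and 758 lower in SH-SY5Y, instead of 567 and 664, and with the replicate as a block 348 were higher and 719 lower. Of the 47 oligos 10 were higher and 0 lower under either of these. A reference read with an error at the SNP base would count for the alternative oligo. With 1% of the reference count subtracted from each alternative count the numbers stayed at 11 and 22.

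FBXL18 rs182946436 with A was the most active alternative oligo in microglia among the 47. Its activity ran from 1.46 through a median of 1.76 to 2.24 in SH-SY5Y, and its fitted log2 was 1.88 ± 0.30 (edgeR adjusted p = 4.77e-07). Here and below ± is the SD of the activity over the 6 RNA replicates, not an error of the fitted value. In microglia its activity ran from 0.47 through 1.20 to 1.69 (fitted 1.24 ± 0.41, adjusted p = 3.90e-09). The RNA was above the DNA without overlap in both lines, as it was for the G oligo.

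TREML2 rs112522404 with G was at 311 to 378 RNA CPM in SH-SY5Y against 37.8 to 48.1 in DNA, an activity of 2.85 to 3.13 with a median of 3.03 (fitted 3.07 ± 0.11, edgeR adjusted p = 1.75e-14). In microglia the RNA was at 56.1 to 68.7 against 33.3 to 43.6, an activity of 0.50 to 0.80 with a median of 0.55 (fitted 0.61 ± 0.11, adjusted p = 4.74e-05). The groups did not overlap in either line. After the subtraction of shared reads the microglia value was 0.32 and did not pass (edgeR adjusted p = 0.0678, the highest of the range from 1.07e-08 over its alternatives).

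MOG rs2535243 with G passed in both lines. In SH-SY5Y its activity ran from 0.15 through 0.84 to 1.13 (fitted 0.88 ± 0.35, edgeR adjusted p = 0.00683) and in microglia from 0.42 through 0.59 to 1.30 (fitted 0.72 ± 0.33, adjusted p = 0.00303). RNA and DNA overlapped in both lines, and the highest microglia value was that of replicate 3. Without replicate 3 the microglia value was 0.54 and did not pass (adjusted p = 0.066, the highest of the range from 0.0006 over its alternatives).

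TXNRD2 rs67937222 with A was higher in both lines by a smaller amount, with 3300 mean DNA counts in SH-SY5Y and 2588 in microglia. Its activity ran from 0.031 to 0.44 in SH-SY5Y (fitted 0.34 ± 0.14, edgeR adjusted p = 0.00477) and from 0.26 to 0.50 in microglia (fitted 0.37 ± 0.10, adjusted p = 3.01e-06). ZDHHC24 rs11227522 with G ran from 0.16 to 0.76 (fitted 0.56 ± 0.24) and from 0.15 to 0.60 (fitted 0.40 ± 0.16), and passed in both lines. WDR27 rs16888016 with G passed in microglia (fitted 0.39 ± 0.094, adjusted p = 1.99e-05), where its RNA did not overlap its DNA. In SH-SY5Y it lay at the threshold (fitted 0.40 ± 0.33, adjusted p = 0.0393), and with the replicate as a block it did not pass (0.37, adjusted p = 0.0583). There it was also lost with total counts and without replicate 1, 2, 3, 4 or 6, with values of 0.34 to 0.51 over all alternatives.

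BRD1 rs138826 with C was at 0.93 ± 0.50 in SH-SY5Y and 0.43 ± 0.14 in microglia (edgeR adjusted p = 0.00648 and 0.0226), the latter lost without replicate 2, 4 or 6 (0.37 to 0.50 over all alternatives, as are the ranges that follow). EPB41 rs12130351 with T was at 1.03 ± 0.70 and 0.48 ± 0.098, lost in SH-SY5Y without replicate 2, 3, 5 or 6 (0.84 to 1.21) and in microglia without 2 or 4 (0.39 to 0.58). MAN2A2 rs10048033 was higher with A in both lines (1.19 ± 0.25 and 0.51 ± 0.17), the latter lost without replicate 3 or 5 (0.44 to 0.56). SPPL2A rs150435817 was higher with G in both lines (0.62 ± 0.40 and 0.56 ± 0.15), the former lost without replicate 2 or 4 (0.44 to 0.75). Its A oligo (0.70 ± 0.15) and T oligo (0.44 ± 0.24) were higher in microglia, the T oligo not without replicate 4 or 6 (0.29 to 0.54). With PPP1R16B rs4812336 A (1.18 ± 0.31), these complete the calls in SH-SY5Y.

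In microglia the further calls were SPATA7 rs73329641 with A (0.75 ± 0.13), CCDC7 rs10160086 with C (0.83 ± 0.24), MUC21 rs886403 with C (0.54 ± 0.21), SLC46A1 rs73273104 with A (0.54 ± 0.22) and MAN2A2 with G (0.52 ± 0.28). PPP1R16B rs41276980 was higher with A (0.69 ± 0.31) and with C (0.66 ± 0.20). MLEC rs56217506 with C (0.35 ± 0.18) was lost without replicate 1 or 5 (0.27 to 0.40), GPR65 rs114064763 with A (0.31 ± 0.14) without 6 (0.22 to 0.37) and PROX2 rs10220695 with C (0.56 ± 0.25) without 6 (0.41 to 0.67). Counted by fragment, 19 of the 39 had at least 1 alternative oligo that was higher in either line, against 13% of 10141 fragments, and 20 had none. Among these 20, TSTA3 rs75900260 with G had ample counts (1021 mean DNA counts in SH-SY5Y) and lay at 0.042 ± 0.34 in SH-SY5Y and -0.18 ± 0.26 in microglia. LPGAT1 rs1044788 with A and with T (1274 and 1515 counts) lay at 0.18 and 0.052 in SH-SY5Y and at -0.021 and -0.030 in microglia. Oligos that passed had more DNA counts than those that did not, with medians of 772 against 377.2 in SH-SY5Y and 571.9 against 254.8 in microglia.

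Because a fragment entered by its high reference value, a comparison of its alternative with its reference oligo leans below 0 through that choice, and it is described without a test. Of the 47 alternative oligos, 34 were below their reference in both lines and 1 was above it in both, the A oligo of FBXL18 (0.043 and 0.20). The median difference was -0.53 in SH-SY5Y and -0.26 in microglia. TSTA3 G was below its A reference in all 6 replicates of each line, by 0.77 in SH-SY5Y and 0.88 in microglia. TXNRD2 A was below in all 6 replicates of each line as well, by 0.57 and 0.35. The SGO1 rs9822963 G oligo, the GPR65 A oligo and the ARHGEF10L rs871089 T oligo were also below in 6 of 6 replicates in both lines. How often alternative oligos lie below their reference over all fragments is not given here. No effect of the base is therefore read from these counts.

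Alternative oligos also allowed a test of the difference between lines. Of the 47, 2 differed, both lower in microglia (edgeR interaction of molecule and line), against 0.776% of 13151 oligos. Over all oligos 18 were higher and 84 lower in microglia, and 32 and 55 with total counts, with 0 and 2 of the 47 oligos in both cases. TREML2 G differed by -2.48 (microglia minus SH-SY5Y, adjusted p = 4.96e-17). PPP1R16B rs4812336 A was at 66.8 to 121 RNA CPM in SH-SY5Y against 39.7 to 52.4 in DNA, an activity of 0.50 to 1.36 with a median of 1.21. In microglia its RNA was at 38.9 to 55.5 against 36.7 to 46.9, an activity of -0.16 to 0.35 with a median of 0.026. The groups of activities did not overlap between lines, and the difference was -1.10 (adjusted p = 0.00033). Its fitted microglia value of 0.11 did not pass (adjusted p = 0.589). The reference oligo of this fragment met the rule in microglia at 0.52, on 180.2 mean DNA counts, against 661.5 for the A oligo. The oligos of the other PPP1R16B fragment, rs41276980, had differences of 0.26 with A and 0.39 with C, which did not pass (0.76 and 0.599). Both calls passed in every alternative, with -2.78 to -2.38 for TREML2 and -1.19 to -0.997 for PPP1R16B.

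Where a SNP had several alternative bases, these could be compared with each other without the reference oligo. Of the 39 fragments, 6 had 2 alternative bases and 1 had 3, which gave 9 pairs. None of the 9 pairs differed in either line (edgeR interaction of allele and molecule), where 0.421% of 2378 pairs passed in SH-SY5Y and 1.26% of 2376 in microglia. None had an unadjusted p under 0.05, and DESeq2 called 0 of the 9 in each line. This does not show that the bases act alike. For SPPL2A rs150435817 the 3 differences in microglia were -0.15 (G minus A), -0.25 (T minus A) and -0.10 (T minus G), with single replicates from -0.86 to 0.13. For PPP1R16B rs41276980 C minus A was -0.014 ± 0.19 in microglia and -0.18 ± 0.67 in SH-SY5Y. The largest were at DIAPH3 rs339533 in microglia, with T minus G at -0.77 ± 1.51, and at MAN2A2 rs10048033 in SH-SY5Y, with G minus A at -0.68 ± 0.86.

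The 37 genes had 493 other fragments above the DNA minimum, at least 1 for each gene. Since these are what the rule left out, they are described only. Their median activity was -0.015 in SH-SY5Y and -0.012 in microglia. In SH-SY5Y 20 of them (4.06%) reached 0.5, against 3.73% of all fragments, and in microglia 13 (2.64%), against 2.03%. FBXL18 had 31 other fragments with medians of -0.15 and -0.040, and BRD1 had 35 with -0.015 and 0.00023. The 13 other TREML2 fragments ran from -1.06 to 0.53 in SH-SY5Y, and the 3 of MOG from -0.53 to -0.097. The highest of all in SH-SY5Y, picked out after its value was seen, was a WDR27 fragment at 1.20.

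Of the 39 reference bases 14 were G, 13 C, 8 T and 4 A, and A made up 10.3% of them against 23.1% of all fragments above the DNA minimum. A single alternative base was present for 82.1% of the 39 and for 82.1% of all. The median DNA count was lower than that of all fragments, at 424.2 against 639.5 in SH-SY5Y and 355.7 against 553.5 in microglia. The DNA count is the denominator of the activity, so this is not independent of the rule. By gene list, the 39 held 2 fragments of zinc finger genes (of 484), 2 of signalling kinases and phosphatases (of 168, both PPP1R16B) and 1 each of solute carriers (of 217), ion channels (of 82), ubiquitin ligases and deubiquitinases (of 225), cadherins, integrins and junction proteins (of 98, DSG3, with FAT3 not on that list) and non-coding RNA genes (of 177). Members made up 0.413% (zinc finger genes) to 1.22% (ion channels) of these lists, against 0.384% of all fragments above the DNA minimum. With so few members per list nothing is read from these counts, nor from the lists below without any. Of 18 fragments of myelin and glial genes 2 were members, MOG and TREML2, both of which were put on that list with their activity known. There was no fragment of the lists of HLA and antigen presentation (of 225), transmitter receptors (of 179), TRIM proteins (of 141), Parkinson and Alzheimer disease genes (of 115), cytokines and chemokines (of 100), RNA-binding and decay proteins (of 60) or histones (of 5). HIP1R, TREML2 and SPPL2A were not on the list of Parkinson and Alzheimer disease genes, so these counts hold only for the lists as made.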

How the data were processed

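Reporter DNA and RNA were counted in 24 libraries. The deposited values are counts per variant and allele, not scaled for depth. Per the submitters' processing notes, cutadapt 2.7, UMI-tools 1.0.0, Bowtie2 and SAMtools 1.10 were used with genome build hg38. Per the labels' protocols the RNA primer carried a molecular identifier. Whether DNA reads were collapsed, and the mapping settings, are not given in the sources used here.

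Shares were taken over all reference and alternative oligos. Replicate activities use the RNA count plus 0.5. Alternative oligos with at least 10 mean DNA counts were tested with edgeR 4.0.16 (R 4.3.3, TMM over all oligos, Benjamini-Hochberg). The ± values are standard deviations of the activity, or for pairs of its difference, over the 6 RNA replicates. They use the mean DNA share, so they leave out the spread of the DNA and are not errors of the fitted values. DESeq2 1.42.0, other scalings and minimums, a replicate block and left-out replicates were alternatives. The code was tested on simulated data. Gene names were looked up in RefSeq, where 34 of 37 were current symbols and 3 matched otherwise.

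Per the labels, DNA and RNA of a number come from 1 biological replicate. Their deviations correlated at 0.0171 to 0.0609, and each RNA library was closest to the DNA of its own number. Fragments were named by rule: the members by gene and SNP (1 of them is counted but not reported by name here), and replicate values for the 15 highest in their lower line, those that share a gene or whose alternative oligo passed a line or pair test, and those nearest the threshold. Members, lists and rule were chosen with earlier results of these data known.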

Additional observations from a re-analysis of the deposited data

Results flagged for a closer look

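The reference and alternative oligos of the 21 fragments with replicate values in the text gave 88 sets of 6 RNA replicates, and the other 18 fragments were not looked at in this way. In 11 of the 88 sets 1 value stood apart from the other 5 by Dixon's test. About 1 set in 20 does so by chance. In microglia these were the DIAPH3 rs339533 reference oligo (1.69 in replicate 5, the others from 0.28 to 0.76), the MOG G oligo (1.30 in replicate 3, others 0.42 to 0.68), the TREML2 G oligo (0.80 in replicate 4, others 0.50 to 0.57), the DIAPH3 T oligo (-3.004 in replicate 6, others -0.27 to 0.87) and the ANKRD10 T oligo (0.57 in replicate 1, others -0.015 to 0.19). In SH-SY5Y they were the DIAPH3 T oligo (-3.85 in replicate 5, others -0.15 to 0.36), the MLEC C oligo (-0.92 in replicate 2, others -0.098 to 0.37), the HIP1R A oligo (-2.18 in replicate 3, others 0.050 to 0.56), the PPP1R16B rs4812336 A oligo (0.50 in replicate 3, others 1.12 to 1.36), the C16orf72 A oligo (-1.05 in replicate 2, others -0.10 to 0.24) and the WDR27 G oligo (-0.34 in replicate 5, others 0.30 to 0.55).

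The difference between lines passed for TREML2 rs112522404 G (-2.48) and PPP1R16B rs4812336 A (-1.10), both microglia minus SH-SY5Y.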

How the results depend on the processing

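The number of fragments that met the rule was 24 with a DNA minimum of 200, 5 with an activity threshold of 0.75 and 61 with TMM scaling and no centring, and 43 to 53 without 1 replicate. The first and second of these remove fragments by construction. The number of alternative oligos higher in both lines was 6 to 9 without 1 replicate, and the cause was not tested. The replicate block gave 10 higher in SH-SY5Y, 22 in microglia, 9 in both and 2 that differed between lines, and of the single calls it ended that of WDR27 in SH-SY5Y alone. Of the single calls, 8 of 11 in SH-SY5Y, 13 of 22 in microglia and 2 of 2 between lines passed in every alternative run, and none changed sign. The subtraction of shared reads was chosen after seeing the data. Oligos that passed had more DNA counts at the median than those that did not, and the part of depth in this was not tested.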
